A study of Mus musculus with 8 samples.

Results

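The mTOR pathway components described here are 9 genes: Mtor, Mlst8, Rptor, Rictor, Akt1, Tsc1, Tsc2, Rheb and Rps6kb1. They were chosen by name and not by a rule on measured values, though earlier results of these data were known. All 9 were found among the 18301 genes of the deposited table, and all 9 passed the filter on low counts that left 12898 genes for testing. Ribosome footprints, the stretches of mRNA that ribosomes shield from nuclease, and total RNA were measured in mouse neurons at day 8 in vitro. The neurons were grown from CGR8 embryonic stem cells, a mouse line, in Neurobasal-A medium with B27, and every culture received cycloheximide at 100 µg/ml for 5 minutes, which holds ribosomes in place. The groups were an Eif4g1/Eif4g3 double-knockout (DKO) and wildtype (WT), each with 2 cultures, and each culture gave a footprint library and an RNA library. DKO and WT stand below for the libraries with those labels. The library codes of WT replicate 1 are built like those of the DKO cultures, from a letter and numbers, and only those of WT replicate 2 spell out WT.

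mTOR is a protein kinase that matches growth and protein synthesis to nutrients and growth factors. It works in a pair of complexes: mTORC1, built around raptor, promotes cap-dependent translation, and mTORC2, built around rictor, phosphorylates Akt. Growth factor signals pass through Akt to the TSC complex, which restrains the GTPase Rheb, the direct activator of mTORC1. In neurons the pathway is known for its part in dendrite growth and synaptic plasticity.

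The libraries held between 10490535 and 19753419 counts in footprints and between 14762047 and 44786643 counts in RNA, of which the 9 genes together made up 0.0723 to 0.075% (footprints) or 0.0849 to 0.0878% (RNA). Eif4g1 stood at 154 and 287 CPM (counts scaled by library size) in DKO footprints, against 299.8 and 263 CPM in WT footprints, and at 125 and 305 CPM in DKO RNA, against 288 and 279.9 CPM in WT RNA. Eif4g3 stood at 164 and 172 CPM in DKO footprints, against 169 and 153 CPM in WT footprints, and at 103 and 138 CPM in DKO RNA, against 120.1 and 128 CPM in WT RNA. Eif4g1 was thus low in DKO replicate 1 but not in DKO replicate 2, and the labels do not state which part of either gene was altered, so a gene sum need not show it. The neurons are labelled cortical and glutamatergic; Slc17a7, the vesicular transporter that marks cortical glutamatergic neurons, was at or under 0.218 CPM in every library, and the summed level of 7 neuronal markers was 2363 to 3932 CPM in DKO and 2387 to 4134 CPM in WT libraries. The 3 GABAergic markers summed to 531 and 564 CPM in DKO footprints, against 604 and 543 CPM in WT footprints. In RNA they summed to 214 and 260 CPM in DKO, against 268 and 265 CPM in WT, and the groups did not overlap. Slc17a6, another glutamate transporter, had 180.4 to 234 CPM in DKO and 74.3 to 166 CPM in WT libraries, the lowest in WT replicate 2. The 3 oligodendrocyte markers summed to 187 to 258 CPM in DKO and 315 to 469 CPM in WT libraries, and Top2a, a marker of dividing cells, had 77.7 to 93.9 CPM in DKO and 105 to 139 CPM in WT libraries. Slc17a6, the oligodendrocyte sum and Top2a did not overlap between genotypes in either assay. Of all tested genes, 32.5% did not overlap in footprints and 38.4% in RNA. Marker ranges in this paragraph span both assays. The 2 fibroblast markers summed to 54.3 to 377 CPM in DKO and 121 to 543 CPM in WT libraries, and the 3 astrocyte markers to 173 to 246 CPM in DKO and 119 to 294 CPM in WT libraries. The part of these markers in any result below was not tested. In such bulk samples, fewer cells of a type and less RNA per cell cannot be told apart.

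Between genotypes none of the 9 genes passed the test, whether for footprints, for RNA or for translational efficiency, which is the change of footprints relative to RNA. The test was edgeR's quasi-likelihood test with Benjamini-Hochberg adjustment over all 12898 genes, at an adjusted p under 0.05. It called 0.00775% of all genes for footprints, 0.0155% for RNA and 0.0% for translational efficiency, so few genes of any kind were called. Without both libraries of WT replicate 1 it called 508 genes (3.94%) for footprints and 381 (2.95%) for RNA, none of them among the 9. DESeq2 and limma-voom also called none of the 9. At an unadjusted p under 0.05, there were 725 genes for footprints, 719 for RNA and 110 for translational efficiency, with 0 of the 9 among them in each. Without both libraries of DKO replicate 2, the log2 fold changes of the 9 genes ran from -0.18 for Mlst8 to 0.20 for Rptor in footprints and from -0.29 for Mtor to 0.15 for Tsc1 in RNA, and again none passed the test. The p-values rest on a spread estimated in 1 fit over all 8 libraries, both assays and both genotypes together, and speak only for these cultures. With 2 libraries a group, an exact two-sided permutation test of 1 gene could not go below 0.333.

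**Figure D1:**
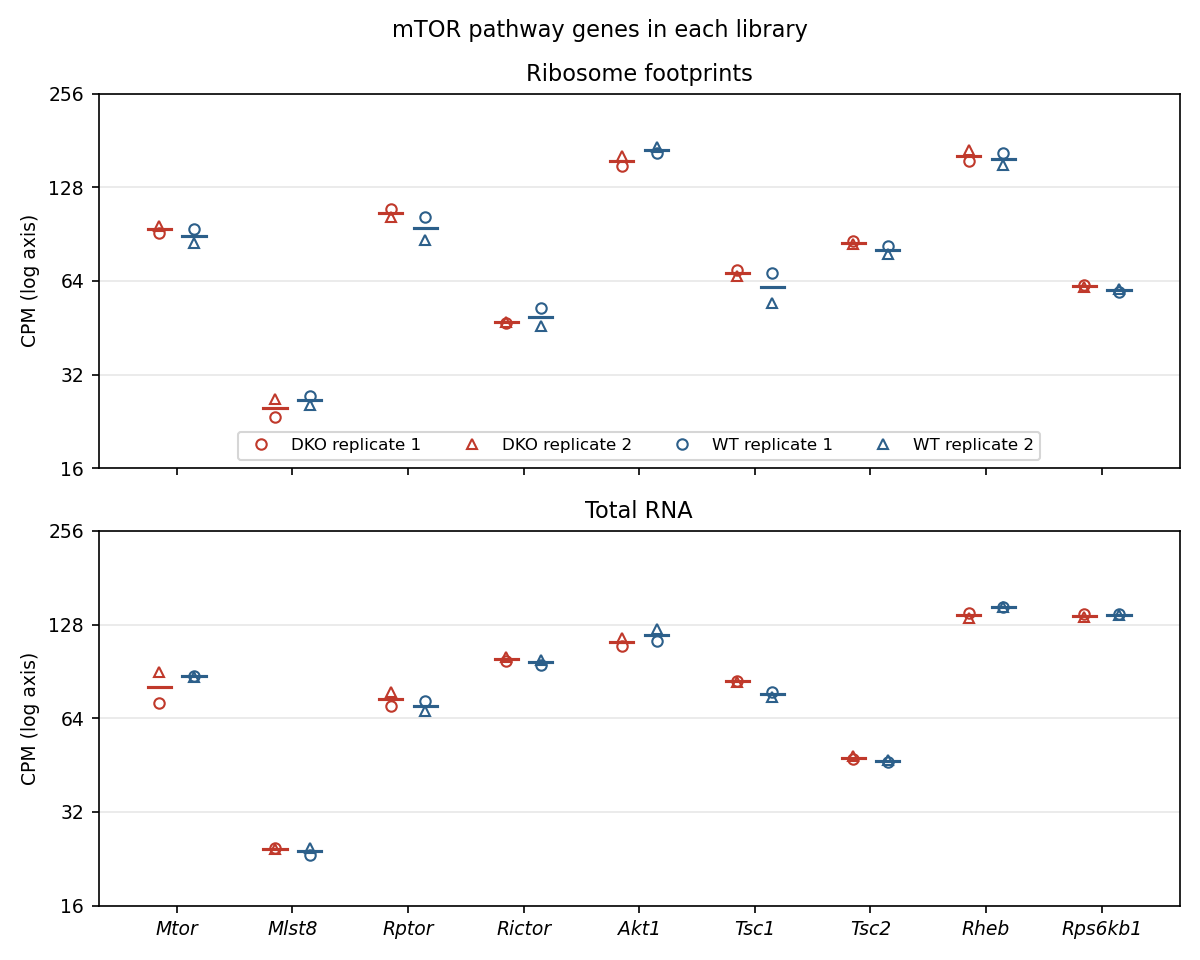
Level of each gene in each library, in CPM on a log2 axis, with footprints above and total RNA below. Circles and triangles are replicates 1 and 2, red is DKO, blue is WT and bars are means; DKO and WT points of a gene lie close together compared with the distances between genes.

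Mtor encodes the kinase itself (chromosome 4, 148448611 to 148557683, plus strand, GRCm38). It had 91.4 and 96.2 CPM in DKO footprints, against 93.6 and 84.9 CPM in WT footprints. In RNA it had 71.5 and 90.3 CPM in DKO, against 87.7 and 87.1 CPM in WT. The genotypes overlapped in both assays, and the low RNA value belonged to DKO replicate 1. The log2 fold change was 0.07 ± 0.12 (SE) in footprints and -0.12 ± 0.11 in RNA (edgeR adjusted p = 0.946 and 0.922). Without both libraries of DKO replicate 1 the RNA value was 0.05, and without both of DKO replicate 2 it was -0.29.

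Mlst8 encodes a subunit that both complexes share (chromosome 17, 24473551 to 24479078, minus strand). It had 23.3 and 26.7 CPM in DKO footprints, against 27.3 and 25.6 CPM in WT footprints. Its RNA was 24.4 and 24.3 CPM in DKO, against 23.3 and 24.5 CPM in WT. The groups overlapped in both, with a log2 fold change of -0.08 ± 0.11 in footprints and 0.02 ± 0.11 in RNA.

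Rptor encodes raptor, the scaffold of mTORC1 that binds its substrates (chromosome 11, 119602905 to 119899576, plus strand). Its footprints were 109 and 103 CPM in DKO, against 102 and 86.5 CPM in WT. Both DKO cultures lay above both WT cultures, though DKO replicate 2 and WT replicate 1 were nearly equal. The log2 fold change was 0.16 ± 0.11, the largest in footprints among the 9 genes (edgeR adjusted p = 0.858), and it was 0.04 without both libraries of WT replicate 2. In RNA Rptor had 70.1 and 77.8 CPM in DKO, against 72.9 and 67.7 CPM in WT, and the groups overlapped.

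Rictor encodes the scaffold of mTORC2 (chromosome 15, 6708379 to 6800401, plus strand). It had 46.9 and 47.2 CPM in DKO footprints, against 52.2 and 45.9 CPM in WT footprints. In RNA it had 97.9 and 101 CPM in DKO, against 94.8 and 98.7 CPM in WT. The groups overlapped in both assays, with log2 fold changes of -0.06 ± 0.10 in footprints and 0.04 ± 0.09 in RNA.

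Akt1 encodes a kinase that mTORC2 phosphorylates and that inhibits the TSC complex (chromosome 12, 112653821 to 112674884, minus strand). Its footprints were 149.7 and 162 CPM in DKO, against 165 and 172 CPM in WT. It was the only one of the 9 genes with both DKO footprint libraries below both WT libraries, at a log2 fold change of -0.11 ± 0.10 (edgeR adjusted p = 0.875). Its RNA was 109 and 116 CPM in DKO, against 113 and 124 CPM in WT, and overlapped.

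Tsc1 and Tsc2 encode hamartin and tuberin, the core of the complex that turns Rheb off (chromosome 2, 28641228 to 28691167, plus strand, and chromosome 17, 24595816 to 24632630, minus strand). Tsc1 footprints were 69.2 and 66.2 CPM in DKO, against 67.7 and 54.2 CPM in WT. Tsc1 RNA was 84.4 and 83.7 CPM in DKO, against 77.7 and 75.0 CPM in WT. The RNA groups did not overlap, whereas the footprint groups did, WT replicate 2 being the low library. The log2 fold change of Tsc1 was 0.15 ± 0.11 in footprints and 0.14 ± 0.11 in RNA (edgeR adjusted p = 0.862 and 0.889), and its footprint value was -0.00 without both libraries of WT replicate 2. Tsc2 footprints were 86.0 and 83.8 CPM in DKO, against 82.8 and 78.2 CPM in WT, and Tsc2 RNA was 47.3 and 48.4 CPM in DKO, against 46.3 and 47.0 CPM in WT. Tsc2 did not overlap in either assay, by small margins, with log2 fold changes of 0.08 ± 0.09 and 0.03 ± 0.09.

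Rheb encodes the GTPase that activates mTORC1 (chromosome 5, 24802823 to 24842624, minus strand). Its footprints were 155 and 168 CPM in DKO, against 165 and 150.3 CPM in WT. Its RNA was 139.6 and 134 CPM in DKO, against 145 and 146 CPM in WT. The RNA groups did not overlap, at a log2 fold change of -0.09 ± 0.09 (edgeR adjusted p = 0.930), and the footprint groups did.

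Rps6kb1 encodes S6 kinase 1, a substrate of mTORC1 (chromosome 11, 86498871 to 86544805, minus strand). It had 62.1 and 61.2 CPM in DKO footprints, against 59.1 and 60.1 CPM in WT footprints. Its RNA was 138 and 135 CPM in DKO, against 138 and 137 CPM in WT. The footprint groups did not overlap but differed by a log2 fold change of only 0.05 ± 0.09.

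Counted together, 4 of 9 genes did not overlap between genotypes in footprints where 32.5% of all tested genes did not. Of these 3 were higher in DKO, as were 16.3% of all genes, and 1 was lower, as were 16.2%. In RNA 3 of 9 did not overlap, against 38.4% of all tested genes, with 2 higher (19.6% of all genes) and 1 lower (18.9%). For translational efficiency it was 1 of 9, Rps6kb1, which was higher, against 26.9% of all genes (13.8% higher, 13.2% lower). With 9 genes, 1 gene more or less moves such a share widely, so nothing is read from these counts. The 9 genes had a median log2 fold change of 0.05 for footprints, beside 0.00 over all tested genes. For RNA the medians were 0.02 and -0.00, and for translational efficiency 0.04 and 0.01.

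The widest 95% limits over the 9 genes were -0.32 and 0.40 (log2) in footprints, or folds of 0.798 and 1.32. In RNA they were -0.37 and 0.37, and in translational efficiency -0.45 and 0.54. Changes beyond these limits lie outside the intervals of all 9 genes. Single genes had narrower intervals, such as -0.14 to 0.24 for Rps6kb1 in footprints. The intervals are not adjusted for the number of genes and do not state which size of change the test could call. In translational efficiency the estimates ran from -0.10 ± 0.16 for Mlst8 to 0.19 ± 0.16 for Mtor.

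**Figure D2:**
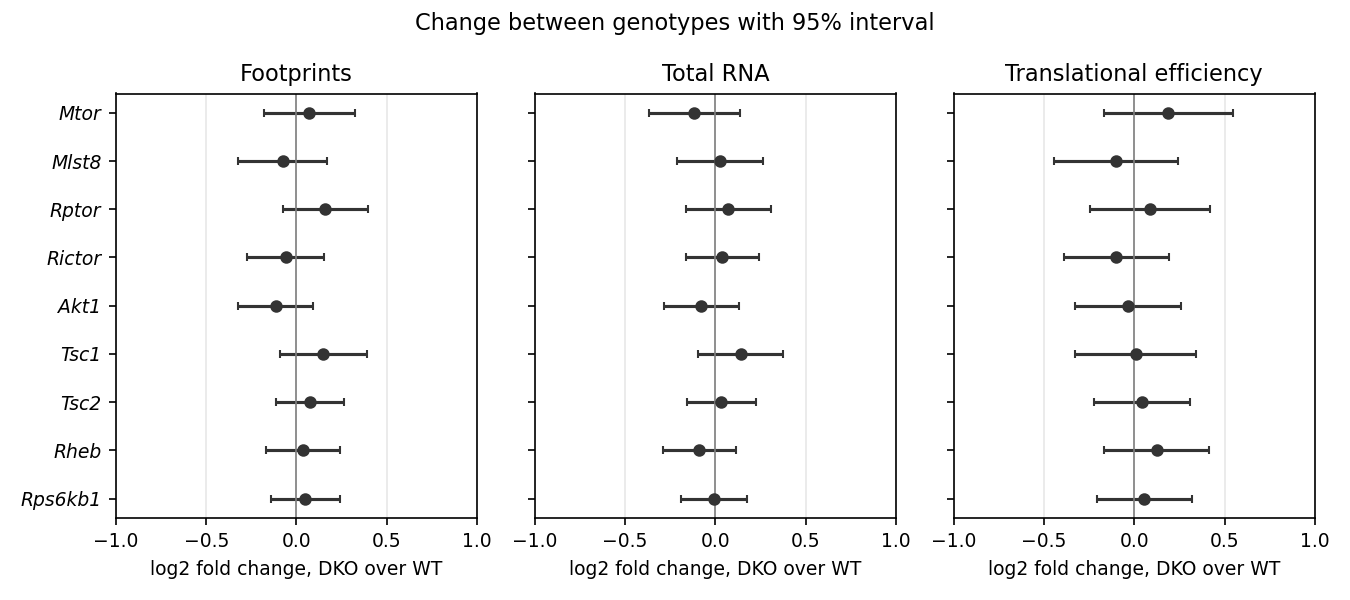
Log2 fold change of each gene, DKO over WT, in footprints, total RNA and translational efficiency; points are edgeR estimates and bars are 95% intervals. Every interval includes 0.

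The genes differed from each other in how many footprints they had per RNA count, far more than the genotypes did. Footprint over RNA was called for 7 of 9 genes in DKO and 6 of 9 in WT, where 65.4% and 65.1% of all tested genes were called. The 7 in DKO were 4 higher in footprints and 3 lower (32.1% and 33.3% of all genes), and the 6 in WT were 3 higher and 3 lower (31.4% and 33.8%). Rps6kb1 had a log2 ratio of -1.16 and -1.14 in the DKO cultures, against -1.22 and -1.19 in the WT cultures. Rictor had -1.06 and -1.10 in DKO, against -0.86 and -1.10 in WT. By this ratio, which is not corrected for length, these were the lowest 2 of the 9 genes in all 4 cultures. At the other end Tsc2 had 0.86 and 0.79 in DKO, against 0.84 and 0.73 in WT. In this ratio of counts, raptor and rictor, the scaffolds of the paired complexes, stood on opposite sides of 0. Rptor was at 0.63 and 0.40 in DKO and 0.49 and 0.35 in WT. Hamartin and tuberin stood on opposite sides of 0 too, with Tsc1 at -0.29 and -0.34 in DKO and -0.20 and -0.47 in WT.

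The zero of this ratio depends on the scaling. With libraries scaled within each assay the median of all genes moved to -0.24 in DKO and -0.25 in WT. The calls over all genes then split into 3037 higher and 5584 lower in DKO, beside 4145 higher and 4289 lower, and into 2982 higher and 5592 lower in WT, beside 4045 higher and 4356 lower. Under that scaling Mtor and Mlst8 stood below 0 in both genotypes and Rheb in WT. With coding isoforms alone the fitted ratio of Akt1 was -0.03 in DKO and 0.00 in WT, against 0.47 and 0.50 with all isoforms. That of Rheb was then -0.27 in DKO and -0.42 in WT, against 0.24 and 0.11 with all isoforms. Footprints fall mainly on the coding part of an mRNA, which takes 28.5% of the longest Rps6kb1 transcript and 86.8% of that of Tsc2. Mtor, with 89.3%, had a ratio near 0. With footprints per longest coding length over RNA per longest transcript, a choice added after seeing the data, the order changed. Rictor was then at -1.89 in DKO and -1.79 in WT, Mtor at -1.30 and -1.48, and Rps6kb1 at -1.01 and -1.07. Rptor was at -0.44 and -0.53, Tsc1 at -0.84 and -0.86, and Tsc2 at -0.64 and -0.69. The highest were Rheb at 0.26 and 0.13, Mlst8 at 0.15 and 0.25, and Akt1 at -0.30 and -0.27. Rheb lay above 79.6% of genes in DKO and 76.4% in WT, and Mlst8 above 76.5% and 79.6%. Tsc2 lay above 47.9% of genes in DKO and 46.7% in WT, beside 83.1% and 82.4% for the ratio of counts. Across the 9 genes the correlation of coding share and the ratio of counts was r = 0.49 in DKO and 0.45 in WT. Over 12671 tested genes with a coding isoform it was 0.20 in both, as a description over genes that share libraries.

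**Figure D3:**
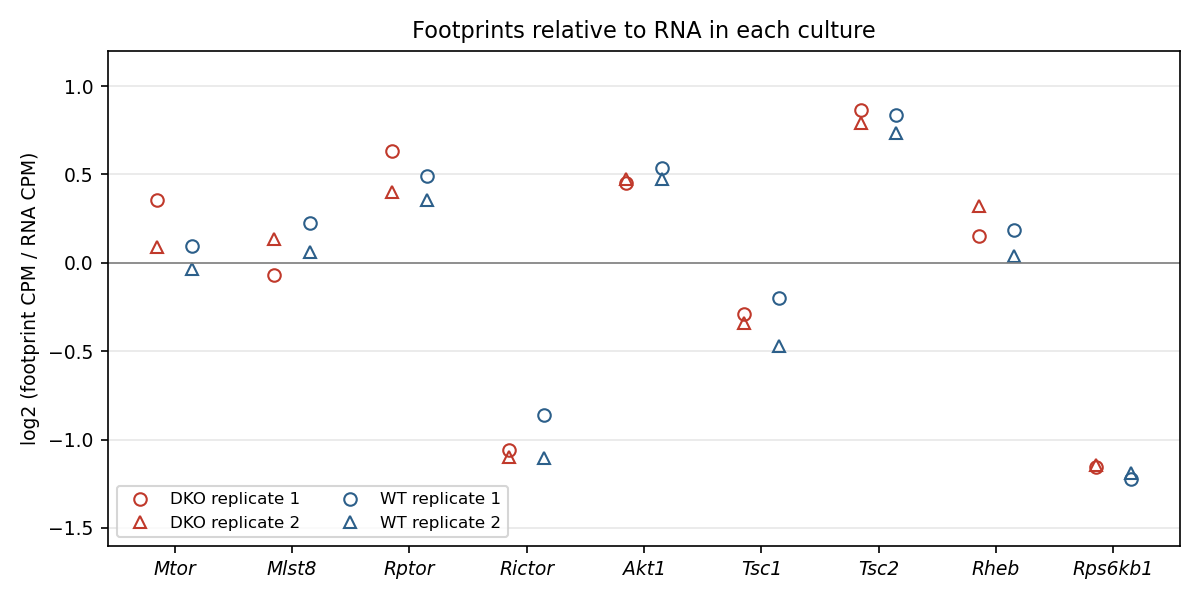
Log2 ratio of footprint CPM to RNA CPM for each gene in each of the 4 cultures, red for DKO and blue for WT. Rps6kb1 and Rictor lie near -1 and Tsc2 near 0.8 in both genotypes.

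Levels per transcript length, scaled to a common total like TPM, put Rheb RNA first at 175 ± 2.42 in DKO and 168 ± 0.86 in WT (SD, n = 2). Akt1 followed at 94.6 ± 0.007 in DKO and 96.6 ± 3.18 in WT, and Rps6kb1 at 69.7 ± 3.28 in DKO and 64.6 ± 1.99 in WT. Rptor, Mtor, Tsc1 and Rictor lay together, between 21.2 and 25.7 in DKO and between 20.1 and 24.2 in WT. In DKO the libraries of Rptor and Tsc1 overlapped, as did those of Mtor and Rictor, while in WT no neighbours did, though the gaps were small. Tsc2 at 15.8 in DKO and 14.98 in WT, and Mlst8 at 14.4 in DKO and 13.8 in WT, were lowest. This order depends on the length used. With the mean length of a gene's isoforms, Akt1 came first at 216 in DKO and 226 in WT, above Rheb at 115 in DKO and 121 in WT. Rptor, Mtor, Tsc1 and Rictor then no longer lay together. By that length Mtor was at 46.4 in DKO and 49.8 in WT, and Rictor at 19.0 in DKO and 18.3 in WT.

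The estimated isoform shares of Rptor in RNA differed between the DKO and WT libraries, as a description with no test. Rptor-201, the only coding isoform of the 10 in the table, took 44.1 and 45.3% of Rptor RNA counts in DKO, against 30.9 and 34.2% in WT. Rptor-211, annotated to nonsense-mediated decay, took 46.0 and 47.7% in DKO, against 61.3 and 54.2% in WT. Both shares were apart between genotypes, by 12.1 points for Rptor-201. Rptor-211 lacks exon 10 of the 34 exons of Rptor-201, 76 nt at chr11:119811945-119812020 (GRCm38, plus strand). The pair also differ in their first and last exons, so the shares cannot be laid to that exon alone. The exon is shown in capitals with 15 nt of transcript on either side, from GENCODE M21, and below it the junction without the exon, with the first stop codon in the shifted frame in capitals.
Rptor exon 10: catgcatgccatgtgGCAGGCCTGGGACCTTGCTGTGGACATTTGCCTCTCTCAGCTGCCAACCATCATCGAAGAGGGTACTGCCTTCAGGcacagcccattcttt
Rptor without exon 10: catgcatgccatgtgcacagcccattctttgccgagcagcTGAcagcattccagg

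The shares are descriptions of 1 estimate per library, with no test. Of 13040 isoforms across all genes with an RNA share of 10 to 90%, 37.5% did not overlap between genotypes and 9.75% also differed by 10 points or more. Of the 7 such isoforms of the 9 genes, 5 did not overlap and 4 differed by 10 points or more, as the 2 isoforms of Rptor and the 2 of Mlst8, whose shares mirror each other. The minor Mlst8 isoform took 6.96 and 0% of Mlst8 RNA in DKO, against 29.6 and 14.8% in WT, and its coding length equals that of the major one.

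In footprints Rptor-201 was listed at 0 in both DKO libraries, against 0 and 5.13% in WT libraries. Isoforms annotated to decay or with retained introns held nearly all Rptor footprints in every library. Coding isoforms held 1.05% of Rptor footprints in all, a share under 10% that 2.93% of tested genes had. Footprints are too short to span many exon junctions, and the gene sums used above are not affected by how they are divided within Rptor.

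**Figure D4:**
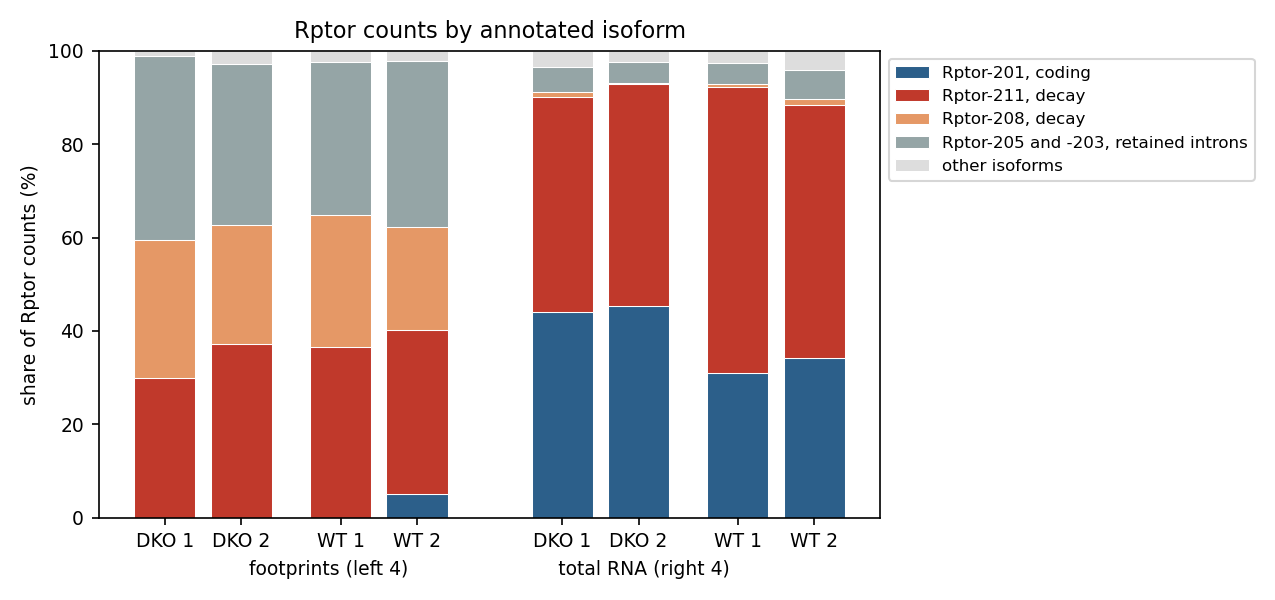
Share of Rptor counts, in percent, given to each annotated isoform in the 4 footprint libraries (left) and 4 RNA libraries (right). In RNA the coding isoform Rptor-201 takes 44.1 and 45.3% in DKO and 30.9 and 34.2% in WT, and in footprints it is at 0 in 3 libraries.

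Tsc1 isoforms differ, among other places, by a 15-nt segment in exon 17 of 23, at chr2:28678952-28678966 (GRCm38, plus strand). It is shown in capitals because the isoforms with and without it varied widely between WT cultures.
Tsc1 segment: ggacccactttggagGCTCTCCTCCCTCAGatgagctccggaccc
A coding isoform without the segment took 29.9 and 27.9% of Tsc1 RNA in DKO, against 51.6 and 12.03% in WT. The WT cultures lay on both sides of the DKO cultures, so the groups overlapped. By transcript length, this isoform also differs from the other coding isoforms outside the segment. The shares therefore cannot be laid to the segment alone.

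Around the 9 genes, 67 other genes of the pathway were listed, of which 65 were tested and 0 were called in footprints, RNA or translational efficiency by edgeR. In footprints 37 were above 0 and 28 below, with a median log2 fold change of 0.02, and 12 higher and 7 lower did not overlap (16.3% and 16.2% of all tested genes). In RNA 41 were above 0 and 24 below, with a median of 0.05, and 21 higher and 8 lower did not overlap (19.6% and 18.9% of all tested genes). No test was run on these counts. At an unadjusted p under 0.05 there were 4 for footprints, 3 for RNA and 1 for translational efficiency. Rraga and Sesn3 were not found among the 18301 genes of the deposited table, so they were not analysed.

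Among partners of the complexes, Akt1s1, the mTORC1 inhibitor PRAS40, had 25.4 and 30.9 CPM in DKO footprints, against 32.0 and 32.1 CPM in WT footprints. Deptor, an inhibitor of both complexes, had few counts, 3.96 and 3.61 CPM in DKO against 3.04 and 2.69 CPM in WT footprints. Mapkap1, the mTORC2 subunit SIN1, had 51.6 and 54.0 CPM in DKO, against 58.2 and 56.4 CPM in WT footprints. These 3 are among the 4 of 9 listed partners that were apart between genotypes in footprints, where 32.5% of all genes were, and none passed the test. In RNA the mTORC2 partners Prr5l and Prr5 had log2 fold changes of -0.58 ± 0.34 and 0.22 ± 0.16.

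In the amino acid branch, which reports nutrients to mTORC1, Sesn2, a leucine sensor, had 86.8 and 85.3 CPM in DKO footprints, against 68.5 and 66.3 CPM in WT footprints. In RNA it had 71.6 and 70.9 CPM in DKO, against 60.8 and 61.7 CPM in WT. Sesn2 was higher in both DKO cultures in both assays, with a log2 fold change of 0.35 ± 0.09 in footprints (edgeR adjusted p = 0.836) and 0.22 ± 0.08 in RNA, and did not pass the test. Its relative Sesn1 had an RNA log2 fold change of -0.22 ± 0.09, and Fnip1, a folliculin partner, 0.24 ± 0.12 in footprints. Lamtor4, a Ragulator subunit that anchors mTORC1 to the lysosome, had a translational efficiency change of -0.37 ± 0.14 (edgeR adjusted p = 0.9997).

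In the growth factor branch, Akt2, a relative of Akt1, had 32.7 and 35.9 CPM in DKO footprints, against 41.1 and 50.2 CPM in WT footprints. Its log2 fold change was -0.41 ± 0.12 (edgeR adjusted p = 0.836). Akt2 passed the test only when both libraries of WT replicate 1 were left out (edgeR adjusted p = 0.0225), a setting that called 3.94% of all genes. Irs2, an insulin receptor adaptor, had 0.31 ± 0.13 in footprints, and the PI3-kinase regulatory subunits Pik3r1 and Pik3r2 had -0.21 ± 0.11 and 0.21 ± 0.11 in RNA. Ddit4, a stress-induced inhibitor of mTORC1, overlapped between genotypes in footprints, at -0.04 ± 0.12. Stk11, the kinase LKB1, had -0.20 ± 0.13 in translational efficiency.

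Among outputs, the translational repressors Eif4ebp1 and Eif4ebp2, which mTORC1 inactivates, had footprint log2 fold changes of 0.18 ± 0.44 and -0.06 ± 0.21, and Eif4ebp1 had only 4.11 to 6.54 CPM there. Rps6, the ribosomal protein that S6 kinase phosphorylates, had 938 and 845 CPM in DKO footprints, against 875 and 817 CPM in WT footprints. The groups of Rps6 overlapped. S6 kinase 2, Rps6kb2, had 0.00 ± 0.18 in footprints, the transcription factor Tfe3 0.16 ± 0.12, and the kinase Sgk1 -0.11 ± 0.12. Larp1, which binds mRNAs of ribosomal proteins, and Maf1, a repressor of RNA polymerase III, had 0.20 ± 0.14 and 0.13 ± 0.09 in RNA.

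The genes whose pattern was most like that of Mtor over the 8 libraries, by Pearson correlation of log2 CPM centred within each assay, were Zswim3, Dner and Abca3, each at r = 0.98. They share the low RNA value of DKO replicate 1. Among the other 8 components the correlation with Mtor ran from -0.20 for Rps6kb1 to 0.51 for Rptor, as a description over libraries that share depth and culture.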

How the data were processed

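The deposited table holds kallisto estimated counts per transcript, made by the authors; FastQC, Trimmomatic, Bowtie and kallisto are named in the submitters' processing notes, with versions that were not given in the sources used here. Of 60528 transcripts, 60444 (99.86%) matched GENCODE M21 (GRCm38) by identifier and 84 did not. Counts, whole numbers as deposited, were summed to 18301 genes. Genes that passed filterByExpr with a minimum count of 10 in both assays (12898) were fitted once over 8 libraries and 4 group means with TMM scaling in edgeR 4.0.16 (R 4.3.3), with 4 residual degrees of freedom, and called at a Benjamini-Hochberg adjusted p under 0.05. The procedure was tested on simulated data. CPM values are scaled by TMM. DESeq2 1.42.0, limma-voom (limma 3.58.1), other scalings, filters, blocks and left-out libraries were alternatives. Footprints and RNA of 1 culture were tied by label number and library code, although the codes of DKO replicate 2 are spelled differently between assays. Deviations of such libraries correlated at 0.605 in WT and 0.211 in DKO. The 9 genes, the lists and the tests were chosen with earlier results of these data known. Named beside the 9 are fixed partners and, per list and contrast, the 2 genes with the smallest p, or up to 4 called ones; the 3 genes most like Mtor were taken by correlation. Some of the fixed partners are not reported here.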

Additional observations from a re-analysis of the deposited data

How the results depend on the processing

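None of the 9 genes was called between genotypes in footprints, RNA or translational efficiency under any alternative run. The count of other pathway genes called in footprints was 0 to 1 with libraries left out, the 1 of 65 being Akt2 without both libraries of WT replicate 1, where 508 of 12898 genes (3.94%) were called. In footprints over RNA in DKO, 4 to 7 of the 9 genes were called with libraries left out, the 4 without both libraries of DKO replicate 1, where 46.1% of all genes were called. With culture as a replicate block, 8 of the 9 were called in DKO and 6 in WT, beside 73.4% and 73.3% of all genes, and 0 in translational efficiency. Same-numbered DKO and WT cultures share only a number (correlation -0.132 in footprints, -0.128 in RNA): a number block called 11 genes of all tested in footprints and 10 in RNA, and crossed pairing, added after seeing the data, 9 and 11, with 0 of the 9 among them.

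Some signs turned, and the cause was not tested. Rps6kb1 in RNA was 0.0047 with RLE scaling, 0.0051 with DESeq2 and 0.0132 with coding isoforms only. Tsc1 in translational efficiency was -0.0009 with RLE scaling, -0.0038 with no filter and -0.0011 with DESeq2. In footprints over RNA, scaling within each assay gave -0.014 for Mtor and -0.19 for Mlst8 in DKO, and -0.197 for Mtor, -0.0831 for Mlst8 and -0.115 for Rheb in WT. Coding isoforms only gave -0.269 for Rheb and -0.0255 for Akt1 in DKO and -0.42 for Rheb in WT; Akt1 and Rheb in DKO had been called with all isoforms, at 0.47 and 0.24. Akt1 in WT was 0.0045 with coding isoforms only, beside 0.50, and Rptor could not be tested there. Without both libraries of DKO replicate 1, the log2 fold change was 0.0103 for Mlst8 in footprints, 0.0465 for Mtor in RNA, and -0.0248 for Rptor and -0.015 for Tsc1 in translational efficiency. Without both of DKO replicate 2 it was -0.0236 for Rheb in footprints, 0.0092 for Rps6kb1 in RNA and -0.0677 for Mlst8 in footprints over RNA in DKO. Without both of WT replicate 1 it was 0.0069 for Rictor in footprints, 0.0375 for Rps6kb1 in RNA and -0.0305 for Rps6kb1 in translational efficiency. Without both of WT replicate 2 it was -0.0006 for Tsc1 and -0.0297 for Rheb in footprints, and -0.1142 for Tsc1 and -0.0086 for Tsc2 in translational efficiency. With single libraries left out, footprint values were as low as -0.0005 for Tsc1 and -0.0297 for Rheb and as high as 0.0362 for Rictor and 0.0101 for Mlst8. RNA values ran from -0.2592 to 0.0583 for Mtor and from -0.0127 to 0.0398 for Rps6kb1, and translational efficiency was as low as -0.0274 for Rptor and as high as 0.0162 for Akt1. Footprints over RNA ran from -0.0626 to 0.1306 for Mlst8 in DKO and was as low as -0.0414 for Mtor in WT. Over all settings with libraries left out, footprint values ran from -0.1831 to 0.0103 for Mlst8, -0.0297 to 0.1051 for Rheb, -0.1477 to 0.0362 for Rictor and -0.0006 to 0.3194 for Tsc1. RNA values ran from -0.2899 to 0.0583 for Mtor, -0.0244 to 0.0398 for Rps6kb1 and -0.0038 to 0.1642 for Rptor. Translational efficiency ran from -0.1162 to 0.0162 for Akt1, -0.0305 to 0.0736 for Rps6kb1, -0.0274 to 0.2177 for Rptor, -0.14 to 0.1799 for Tsc1 and -0.0086 to 0.0846 for Tsc2. Footprints over RNA ran from -0.0677 to 0.1364 for Mlst8 in DKO and -0.0414 to 0.0991 for Mtor in WT.

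All tested genes called were 5, 13 and 1 in footprints, RNA and translational efficiency with DESeq2, and 1, 3 and 0 with limma-voom, beside 1, 2 and 0 with edgeR. Leaving out both libraries of WT replicate 1 gave 508, 381 and 0. Groups of 2 cultures limit every comparison. Levels per length moved with the length used: Rptor footprints per coding length were 0.475 in WT by isoform and 18.9 by the longest coding length, a length choice added after seeing the data, and with the mean isoform length Akt1 RNA (226 in WT) stood above Rheb RNA (121).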
